A study of Mus musculus with 9 samples.

Results

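The genes described here are 10 protein-coding genes that lie between Tmprss2 and Erg on mouse chromosome 16: Bace2, Pcp4, Hmgn1, Fam3b, Brwd1, Psmg1, Lca5l, Igsf5, B3galt5 and Itgb2l. They were taken by name, with no measured value in the rule but with earlier results of these data known. They make up 10 of the 22180 genes that the arrays name. Other genes of the interval, among them Ets2, Mx1, Mx2, Dscam and Get1, are not members and are counted below with the interval as a whole. Each had exactly 1 probe set of its own and none shared with another gene, and all 10 passed the filter on low signal. RNA was measured with Affymetrix Mouse Gene 2.0 ST arrays in prostate lesions that had been cut by laser capture from formalin-fixed, paraffin-embedded tissue of male mice of mixed strain aged 12 months. T-3Mb-Erg tumours were poorly differentiated solid tumours of PbCre;T-3Mb-Erg/+;PtenL/L mice (n = 3). T-3Mb-Erg HG-PIN was high-grade prostatic intraepithelial neoplasia, a lesion confined to the prostate glands, of the same 3 mice. Control HG-PIN came from 3 other mice, PbCre;PtenL/L, which lack T-3Mb-Erg. All groups therefore carry PbCre, in which the probasin promoter drives Cre recombinase in prostate epithelium, and the PtenL/L alleles, in which Cre can delete the tumour suppressor gene. The labels name T-3Mb-Erg as present in a single copy and do not say how it was built or in which cells it acts. The series title concerns haploinsufficiency of the interstitial genes, so the question for T-3Mb-Erg HG-PIN against control HG-PIN is whether these genes were lower when T-3Mb-Erg was present.

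In many human prostate cancers the androgen-driven gene TMPRSS2 is joined to the transcription factor gene ERG. The fusion often arises by loss of the DNA between them, which removes a copy of every interstitial gene. Loss of a copy can lower a gene's RNA in proportion, although some genes compensate from the remaining copy. The members have unrelated functions. Bace2 encodes a membrane aspartyl protease related to the β-secretase Bace1, Fam3b a secreted cytokine-like protein studied in pancreatic islets, Igsf5 a junctional adhesion protein, B3galt5 a Golgi enzyme that adds galactose in β1,3 linkage, and Itgb2l a leukocyte protein related to the β2 integrins. Hmgn1 encodes a nucleosome-binding protein and Brwd1 a bromodomain protein that reads acetylated chromatin. Psmg1 encodes a chaperone of proteasome assembly, Pcp4 a small protein that binds calmodulin, and Lca5l a relative of the ciliary protein lebercilin.

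Promoter sequence was taken from RefSeq (GRCm38.p6) as the 250 bases upstream of each annotated start, and 7 of the 10 members had such a sequence, in 9 windows. The windows of 3 genes are shown 5′ to 3′ in the direction of the gene, with every CG in capitals. Psmg1 is shown because its level varied least within groups, Pcp4 because its level varied most, and Tmprss2 because it stands at the end of the interval.
Psmg1 (chr16:95990961-95991210, minus strand): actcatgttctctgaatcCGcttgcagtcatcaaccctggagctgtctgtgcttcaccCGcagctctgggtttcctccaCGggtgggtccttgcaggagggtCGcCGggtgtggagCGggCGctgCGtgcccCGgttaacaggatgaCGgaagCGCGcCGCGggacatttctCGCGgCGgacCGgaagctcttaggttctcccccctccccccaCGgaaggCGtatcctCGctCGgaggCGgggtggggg
Pcp4 (chr16:96467356-96467605, plus strand): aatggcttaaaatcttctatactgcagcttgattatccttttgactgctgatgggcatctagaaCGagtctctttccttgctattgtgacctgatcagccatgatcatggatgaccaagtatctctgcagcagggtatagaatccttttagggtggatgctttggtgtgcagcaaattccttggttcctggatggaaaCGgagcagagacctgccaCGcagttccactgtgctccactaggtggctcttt
Tmprss2 (chr16:97611196-97611445, minus strand): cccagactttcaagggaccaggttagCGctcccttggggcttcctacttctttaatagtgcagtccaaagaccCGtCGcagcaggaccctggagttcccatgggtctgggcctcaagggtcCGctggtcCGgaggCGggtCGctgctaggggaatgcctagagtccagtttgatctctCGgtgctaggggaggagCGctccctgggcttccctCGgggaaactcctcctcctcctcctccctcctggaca
The Psmg1 window held 23 CG and the Pcp4 window 3, while the Tmprss2 window held 10 and the median over all 32851 windows was 6. Among the other members, the Brwd1 window held 42 CG, that of Hmgn1 30, that of Lca5l 17 and that of Itgb2l 1. B3galt5 had 3 annotated starts, whose windows held 9, 6 and 20 CG. The letters AGAACA, a short site bound by the androgen receptor, stood on either strand in 2 of the 9 member windows, those of Psmg1 and of 1 B3galt5 start, and in 16.1% of all windows. CCGGAA, a longer form of the GGAA core of sites bound by ETS factors such as Erg, stood on either strand in the Psmg1 window alone among the 9. It stood in 12.0% of all windows, and the shorter GGAA was not counted. TATAAA stood on either strand in the Lca5l window alone, and in 12.4% of all windows. Such a match is a description of the letters, not evidence of binding.

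The 9 arrays were alike in their middle and differed in their upper range. Median intensity ran between 13.6 and 15.4, and the 95th percentile of log2 intensity between 6.15 and 6.65. This percentile, the array range, was lowest in its group on control HG-PIN replicate 2 (6.16), T-3Mb-Erg HG-PIN replicate 3 (6.26) and tumour replicate 2 (6.15). Over the 9 arrays it correlated with Igsf5 (r = -0.72), Itgb2l (-0.62), B3galt5 (-0.60), Hmgn1 (0.59), Pcp4 (0.55) and Brwd1 (0.53). For Fam3b r was 0.32, for Bace2 0.10, and for Psmg1 and Lca5l 0.04. All levels below are log2 of the deposited intensity, and a difference of -1 on this scale is a 2-fold lower level. As a gauge of signal without expression, 1390 receptor genes of the olfactory and vomeronasal families were used, and 95% of them averaged below 4.81. Of 16635 genes tested, 4634 (27.9%) averaged above this gauge, and among the members only Bace2 (4.85) and Pcp4 (5.56) did, each over 9 arrays. A change in a member that lies below the gauge may be understated, because unspecific signal makes up more of its value. Luminal epithelial markers were read as a check of the labelled tissue: 4 of 15 averaged above the gauge in the tumours, while 14 of 15 did so in HG-PIN with T-3Mb-Erg, as did 14 of 15 in the control lesions. Since whole captures were measured, fewer epithelial cells and less RNA per cell cannot be told apart.

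In HG-PIN that carried T-3Mb-Erg, none of the interstitial genes was measured at a lower level that passed the test. Of the 10 members, 0 passed limma's test at an adjusted p under 0.05, as did 0.0% of all genes. At an unadjusted p under 0.05 there were 0 members, beside 4.1% of all genes. The sign of the change was negative for 3 members (Fam3b, Igsf5, Brwd1) and positive for 7, beside 50.5% of all genes with a negative change. Only 3 members, Hmgn1, Lca5l and B3galt5, kept their sign in every setting tried, all positive, and the signs of the other 7 turned in at least 1 setting. The median change of the members was 0.11 (log2), beside -0.0036 over all genes tested.

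Bace2 (probe set 17327544) measured 4.95, 5.57 and 5.34 in T-3Mb-Erg HG-PIN, against 5.77, 4.41 and 5.41 in control HG-PIN. The 3 T-3Mb-Erg values lay inside the range of the controls, whose second replicate was low. The mean was 5.29 ± 0.31 with T-3Mb-Erg, against 5.20 ± 0.71 in the controls (SD, n = 3 each), a change of 0.09 with a 95% interval of -0.64 to 0.82. Control HG-PIN replicate 2 was low in luminal epithelial markers as well. It also had the narrowest range of the controls, with a 95th percentile of 6.16 against 6.46 and 6.49. The part of that range in its low values was not tested. The luminal score, the mean difference of the markers from their own averages on the log2 scale, was 0.69 to 1.10 in T-3Mb-Erg HG-PIN, against 0.83 and 0.72 on the other control arrays and -0.30 on that array. Of 15 luminal markers, 14 had a positive change here, with a median of 0.42, and 0 passed the test. The part of this array in the Bace2 result is given by leaving it out, which moved the change to -0.31.

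Fam3b (probe set 17332554) measured 4.78, 4.11 and 3.54 in T-3Mb-Erg HG-PIN, against 4.60, 3.29 and 5.18 in control HG-PIN. These groups overlapped throughout, and control replicate 2 was again the lowest of the controls. The change was -0.21 (95% interval -1.17 to 0.75). It was 0.20 without control replicate 3, -0.74 without control replicate 2 and 0.035 when the third T-3Mb-Erg replicate was left out, so its sign rested on single arrays. Fam3b was the only member whose interval reached below -1, the change that corresponds to a fold of 2.

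Igsf5 (probe set 17327524) measured 3.79, 4.36 and 4.68 in T-3Mb-Erg HG-PIN, against 4.48, 4.45 and 4.52 in control HG-PIN. The controls lay close together and inside the wider T-3Mb-Erg range. The change was -0.20 (95% interval -0.76 to 0.35). B3galt5 (probe set 17327514) measured 3.57, 3.54 and 3.68 in T-3Mb-Erg HG-PIN, against 3.28, 3.44 and 3.05 in control HG-PIN. It was the 1 member whose groups did not overlap, and it was the higher of the groups in T-3Mb-Erg HG-PIN. Groups did not overlap for 10.1% of all genes in either direction and for 5.25% as lower. Its change of 0.34 had a 95% interval of -0.26 to 0.94, and both means, 3.60 with T-3Mb-Erg and 3.26 in the controls, lay well below the gauge. Itgb2l (probe set 17332473) averaged 3.35 ± 0.22 in T-3Mb-Erg HG-PIN, against 3.22 ± 0.40 in control HG-PIN (SD, n = 3 each), also well below the gauge.

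The chromatin genes split in sign. Hmgn1 (probe set 17332447) measured 5.25, 4.75 and 5.39 in T-3Mb-Erg HG-PIN, against 4.51, 4.16 and 4.91 in control HG-PIN. The T-3Mb-Erg values were the higher on average, and the lowest of them lay below the highest control. The change was 0.60 (SE 0.45), with a 95% interval of -0.38 to 1.58. Brwd1 (probe set 17332395) averaged 4.51 ± 0.19 in T-3Mb-Erg HG-PIN, against 4.63 ± 0.31 in control HG-PIN (SD, n = 3 each), a change of -0.12 with a 95% interval of -0.64 to 0.40.

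Psmg1 (probe set 17332386) was the steadiest member. It measured 4.38, 4.49 and 4.11 in T-3Mb-Erg HG-PIN, against 4.60, 4.14 and 4.20 in control HG-PIN. Its change of 0.02 had the narrowest interval of the 10, -0.45 to 0.48. Lca5l (probe set 17332457) averaged 4.82 ± 0.31 in T-3Mb-Erg HG-PIN, against 4.45 ± 0.17 in control HG-PIN (SD, n = 3 each), a change of 0.36 (95% interval -0.18 to 0.91).

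Pcp4 (probe set 17327539) was the brightest member and the least even. It measured 7.79, 5.30 and 4.30 in T-3Mb-Erg HG-PIN, against 4.71, 4.24 and 6.03 in control HG-PIN. A single T-3Mb-Erg array stood far above the others, and the groups overlapped. The change was 0.80 (SE 0.73), with a 95% interval of -0.80 to 2.40. Without T-3Mb-Erg HG-PIN replicate 1 it was -0.18, and without replicate 3 of that group it was 1.54. Replicate 1 also had the highest smooth muscle score of the 9 arrays. That score was 1.59, 0.14 and -0.22 in T-3Mb-Erg HG-PIN, against -0.43, -0.45 and -0.23 in control HG-PIN. The third control, where Pcp4 was 6.03, thus had a score close to that of the third T-3Mb-Erg replicate, where Pcp4 was 4.30. All 10 smooth muscle markers had a positive change in this comparison, with a median of 0.82, and 0 passed the test. Their mean level was 4.78 to 6.59 in T-3Mb-Erg HG-PIN, where 7 of 10 averaged above the gauge, against 4.55 to 4.77 in control HG-PIN, where 4 of 10 did. Their part in the Pcp4 value was not tested.

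**Figure D1:**
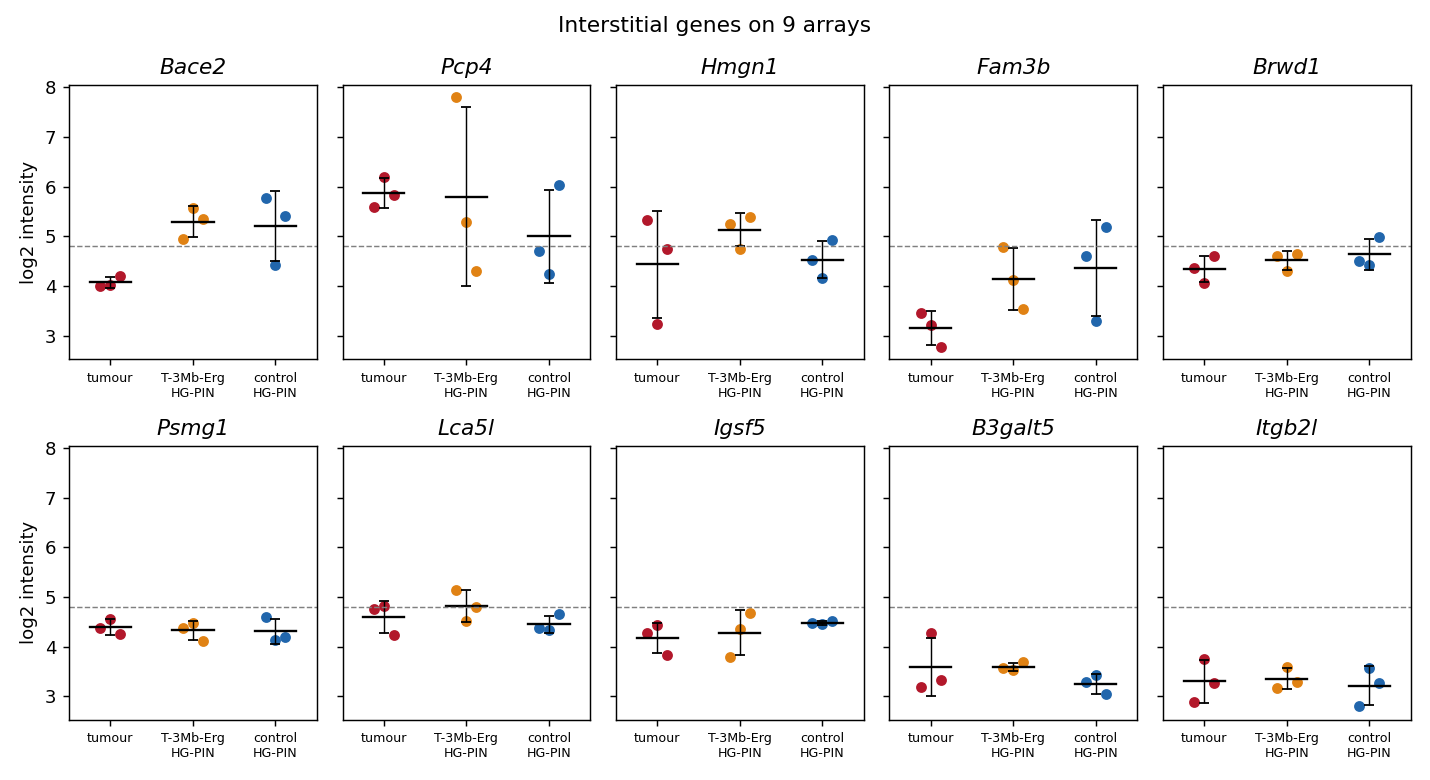
Level of each of the 10 interstitial genes (log2 intensity) on each array, by group; points are single arrays, horizontal lines group means with SD error bars (n = 3 each), and the dashed line is the background gauge of 4.81. Bace2 was low on all 3 tumour arrays, Pcp4 reached 7.79 on 1 T-3Mb-Erg HG-PIN array, and 8 of the 10 genes averaged below the gauge.

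The intervals bound the measured difference in signal, which for the 8 members below the gauge may be smaller than the difference in RNA. For 9 of the 10 members, all but Fam3b, the 95% interval of the measured difference lay wholly above -1. This held for 86.5% of all genes, so it does not set the members apart, and for members such as B3galt5 and Itgb2l, far below the gauge, it does not bound a loss of RNA. The pooled SD within groups was lowest for Psmg1 (0.20) and highest for Pcp4 (1.18), beside a median of 0.33 over all genes. Hmgn1 and Fam3b were also uneven (0.69 each), followed by Bace2 (0.45). B3galt5, Itgb2l, Igsf5, Lca5l and Brwd1 lay between 0.26 and 0.36.

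The rest of the interval was read in chromosomal order from the RefSeq gene table. Of 17 interval genes with a probe set, 15 were tested, and Sh3bgr and 1600002D24Rik fell under the filter. Their median change in T-3Mb-Erg HG-PIN against control HG-PIN was 0.09, with 6 of 15 negative. The 14 nearest protein-coding genes outside the interval, 10 beyond Erg and 4 beyond Tmprss2, had a median of 0.04, with 6 of 14 negative. In both places 0 genes passed the test. The end genes were also measured. Tmprss2, the androgen-regulated serine protease gene, measured 6.50, 6.34 and 6.66 in T-3Mb-Erg HG-PIN, against 6.37, 4.95 and 6.59 in control HG-PIN. Erg measured 3.68, 4.30 and 3.89 in T-3Mb-Erg HG-PIN, against 3.68, 4.22 and 3.75 in control HG-PIN, and the groups overlapped. Changes were 0.53 for Tmprss2 and 0.08 for Erg, each with an adjusted p of 0.998 in limma's fit, and the Tmprss2 change was 0.024 without control HG-PIN replicate 2. All Erg levels in HG-PIN thus lay below the gauge, so its probe set gives no check of the genotype labels.

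**Figure D2:**
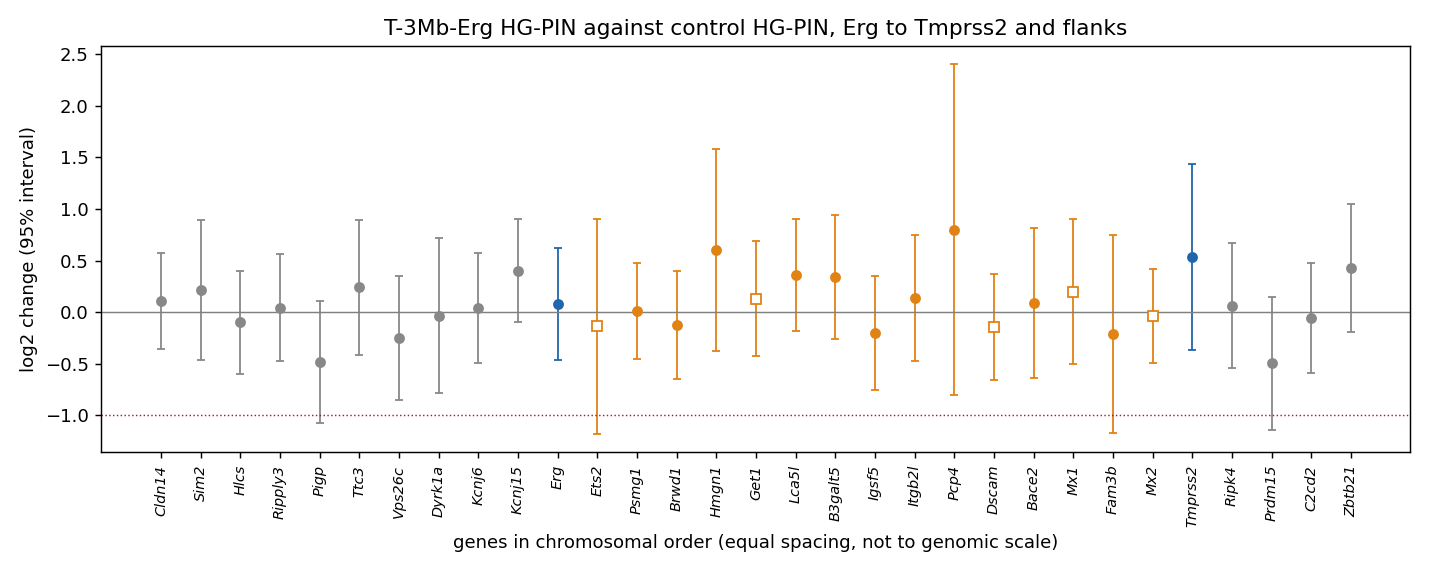
Change in T-3Mb-Erg HG-PIN against control HG-PIN (log2, with 95% intervals) for genes in chromosomal order, equally spaced; members are filled orange circles, other interval genes open orange squares, end genes blue and flanking genes grey, and the dotted line is at -1. No gene in the interval or the flanks passed the test, and the median was 0.09 inside the interval and 0.04 in the flanks.

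In the tumours, Bace2 and Fam3b were measured lower than in HG-PIN of the same mice, and the other 8 members showed smaller or uneven differences. Of the 10 members, 0 passed limma's test at an adjusted p under 0.05, beside 0.283% of all genes (47 genes, and 26 when each mouse had its own term as a replicate block). At an unadjusted p under 0.05 there were 2 members, Bace2 and Fam3b, beside 7.65% of all genes. The groups did not overlap for the same 2, both lower in tumour, beside 11.4% of all genes in either direction and 6.43% lower. The change was negative for 7 members, beside 51.1% of all genes, with a median of -0.14, beside -0.0077 over all genes tested.

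Bace2 measured 3.99, 4.03 and 4.20 in the tumours, against 4.95, 5.57 and 5.34 in T-3Mb-Erg HG-PIN. All tumour values lay below the gauge and all HG-PIN values above it. The tumour mean was 4.07 ± 0.11 (SD, n = 3), and the change against HG-PIN was -1.21 (SE 0.33), a measured difference that may be understated because the tumour values lay below the gauge. It was lower in 3 of 3 mice, by -0.96, -1.54 and -1.14. The adjusted p was 0.251 in limma's fit and 0.204 in the replicate-block fit, so the difference was not called. With weights for array quality, the change of -1.36 had an adjusted p of 0.0236.

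Fam3b measured 3.46, 3.20 and 2.78 in the tumours, against 4.78, 4.11 and 3.54 in T-3Mb-Erg HG-PIN. The tumour values were the lowest of this gene on the 9 arrays, except that the first tumour lay above the second control. The change was -0.996 (SE 0.44; adjusted p = 0.628 in limma's fit), and the differences by mouse were -1.32, -0.91 and -0.76. In the replicate-block fit its adjusted p was 0.238.

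Tumour and HG-PIN captures also differed in the markers of their cells. All 15 luminal epithelial markers tested had a negative change, with a median of -2.15, and 9 of them were called lower: Krt8, Cdh1, Epcam, Foxa1, Elf3, Ehf, St14, Cldn4 and Spint1. The luminal score was -1.31, -1.27 and -1.19 in the tumours, against 1.10, 0.73 and 0.69 in T-3Mb-Erg HG-PIN. The mean level of the listed markers was 4.41 to 4.54 in the tumours, against 6.41 to 6.82 in T-3Mb-Erg HG-PIN and 5.42 to 6.56 in control HG-PIN. The fibroblast markers had a positive change for 9 of 9, with a median of 1.55, and 0 were called. Their mean level was 5.30 to 7.55 in the tumours, against 4.58 to 5.37 in T-3Mb-Erg HG-PIN. By mouse, the fibroblast score differed between tumour and HG-PIN by 1.10, -0.07 and 2.96, so the second mouse showed no rise. Over the 9 arrays, which share the 3 groups, the luminal score correlated with the level of Bace2 (r = 0.91) and of Fam3b (r = 0.80). The part of the marker shift in the Bace2 and Fam3b values was not tested. Tmprss2 itself measured 4.45, 4.63 and 5.12 in the tumours, against 6.50, 6.34 and 6.66 in T-3Mb-Erg HG-PIN, a change of -1.77 (adjusted p = 0.141 in limma's fit). All its tumour values lay below all its T-3Mb-Erg HG-PIN values, and it passed in 3 other settings, with an adjusted p of 0.0135 with array quality weights, 0.0293 with array range as a term and 0.0297 without control HG-PIN replicate 2. Erg, the other end gene, measured 4.19, 4.54 and 4.83 in the tumours, against 3.68, 4.30 and 3.89 in T-3Mb-Erg HG-PIN. Its change was 0.56 (95% interval 0.015 to 1.11, adjusted p = 0.628 in limma's fit). Erg was higher in tumour in each mouse, the groups overlapped, and only the third tumour value lay above the gauge. Against control HG-PIN the Erg change was 0.64 (adjusted p = 0.419 in limma's fit). Inside the interval as a whole, 11 of 15 genes had a negative change in tumour against T-3Mb-Erg HG-PIN (median -0.17), as did 9 of 14 flanking genes (median -0.10), and 0 passed in either place.

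**Figure D3:**
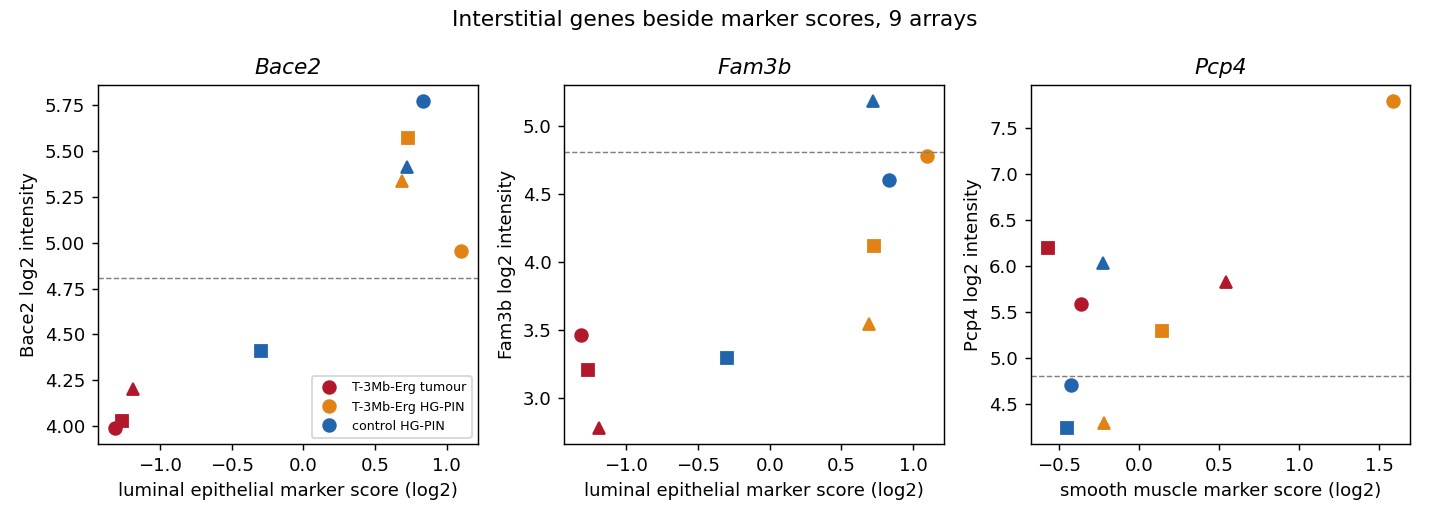
Level of Bace2, Fam3b and Pcp4 (log2 intensity) against a marker score on the same arrays (mean log2 difference of the listed markers from their averages: luminal epithelial for Bace2 and Fam3b, smooth muscle for Pcp4); each point is an array, coloured by group with a symbol for each replicate number, and the dashed line is the background gauge. Tumours lie at luminal scores between -1.31 and -1.19 with the lowest Bace2 levels. The highest Pcp4 level is on the array with the smooth muscle score of 1.59, and the next highest, 6.20, on the tumour array with the lowest score, -0.57.

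For Igsf5, B3galt5 and Itgb2l, the tumour means measured close to those of T-3Mb-Erg HG-PIN. Each of these genes averaged below the gauge, so a difference in their RNA may be understated. Igsf5 measured 4.27, 4.43 and 3.84 in the tumours, and its change against T-3Mb-Erg HG-PIN was -0.10 (95% interval -0.66 to 0.46). B3galt5 measured 3.19, 4.27 and 3.33 in the tumours, a spread that held both higher and lower values than any in T-3Mb-Erg HG-PIN, and its change was 0.00 (95% interval -0.61 to 0.61). Itgb2l changed by -0.05 (95% interval -0.67 to 0.57). Of the neutrophil markers, 5 of 10 passed the filter on low signal, and Ltf alone was called lower (-2.84) in the tumours. The other tested markers of this list were not called, with changes from -1.05 for S100a8 to -0.04 for Cxcr2. Whether the Ltf value reflects neutrophils was not tested.

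Hmgn1 was the most uneven of the tumour values, at 5.33, 3.24 and 4.74. The second tumour stood well below the other two. The differences from HG-PIN of the same mouse were 0.08, -1.51 and -0.65, and the change against T-3Mb-Erg HG-PIN was -0.70 (95% interval -1.68 to 0.29). The second tumour array, which had the narrowest range of the 9 (95th percentile 6.15), carried this value. Without that array the change was -0.06, and with array quality weights it was 0.0049. On the same array B3galt5 (4.27) and Itgb2l (3.75) were at their highest of the 9 arrays. The part of array range in these single values was not tested. Brwd1 was lower in tumour in 3 of 3 mice, by -0.24, -0.23 and -0.04, and its groups overlapped. Psmg1 measured 4.38, 4.56 and 4.25 in the tumours, which differed from HG-PIN of the same mouse by -0.01, 0.08 and 0.14, and changed by 0.07 (95% interval -0.40 to 0.54). Lca5l changed by -0.21 (95% interval -0.76 to 0.34).

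Pcp4 was even in the tumours, at 5.60, 6.20 and 5.83, and uneven in HG-PIN. The tumour differed from HG-PIN by -2.20, 0.90 and 1.53 in the 3 mice, so that the mean change of 0.08 (SE 0.74) describes none of them. The smooth muscle score differed by -1.95, -0.71 and 0.76 in the same mice, so the mouse in which Pcp4 was lower in tumour had the lowest of these differences.

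**Figure D4:**
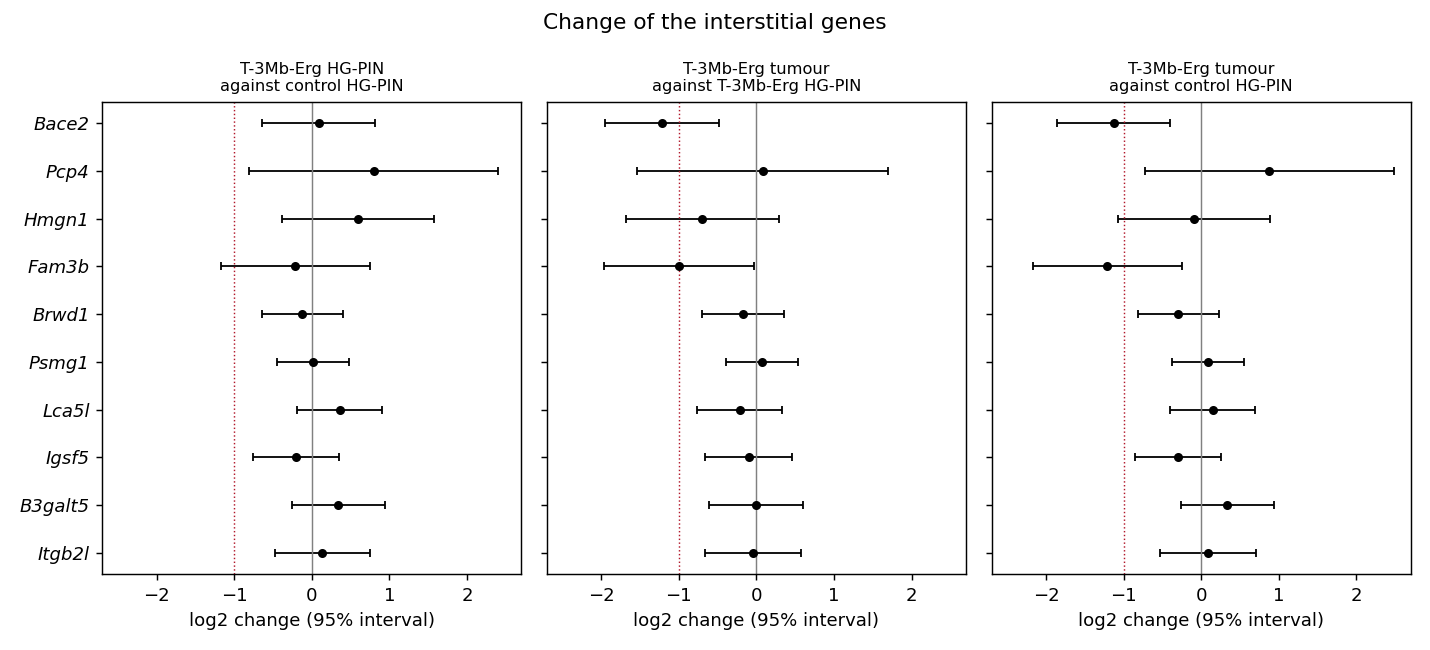
Change of each interstitial gene (log2, points, with 95% intervals as lines) in the 3 comparisons, with a dotted line at -1. Every interval holds 0 in T-3Mb-Erg HG-PIN against control HG-PIN, while those of Bace2 and Fam3b lie below 0 in both tumour comparisons.

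Set against control HG-PIN, which shares its arrays with the comparisons above, the tumours gave 0 of 10 members called, beside 0.18% of all genes. Unadjusted p was under 0.05 for 2 members, Bace2 and Fam3b, beside 9.32% of all genes. Groups did not overlap for 2 members, Bace2 and Igsf5, both lower in tumour, beside 13.7% of all genes in either direction and 7.51% lower. The change was negative for 5 members, beside 53.7% of all genes. Bace2 changed by -1.13 (adjusted p = 0.238) and Fam3b by -1.21 (adjusted p = 0.368), both in limma's fit. Igsf5 averaged 4.18 ± 0.31 in the tumours and 4.48 ± 0.04 in control HG-PIN (SD, n = 3 each), a change of -0.30 with a 95% interval of -0.86 to 0.25. Whether these genes passed depended on single arrays and on weighting. Without control HG-PIN replicate 2, Bace2 changed by -1.52 and passed (adjusted p = 0.0441 in limma's fit), and with the array of the narrowest range in each group left out Fam3b changed by -1.77 and passed (adjusted p = 0.0421). Both passed with weights for array quality. The other changes were 0.88 for Pcp4, 0.34 for B3galt5, 0.15 for Lca5l, 0.09 for Psmg1, 0.09 for Itgb2l, -0.10 for Hmgn1 (0.54 without the second tumour array) and -0.30 for Brwd1.

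The order of the 3 group means differed from gene to gene. It is given as a description, since 0 members passed limma's test in each comparison. Bace2 and Fam3b were lowest in tumour, with both HG-PIN groups within their spread of each other. Igsf5 and Brwd1 were lowest in tumour and highest in control HG-PIN, with neighbours in that order closer than the pooled SD for both genes. Hmgn1 and Lca5l were highest in T-3Mb-Erg HG-PIN. Psmg1 and Itgb2l differed by at most 0.14 between any pair of groups, B3galt5 was lowest in control HG-PIN, and Pcp4 was highest in tumour.

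The relatives and partners of the members were read from 10 lists with 51 tested genes of 65 listed. In each of the 3 comparisons 0 of these 51 genes passed limma's test, where 0.0%, 0.283% and 0.18% of all genes did. At an unadjusted p under 0.05 there were 2 of 51 for T-3Mb-Erg HG-PIN against control HG-PIN, beside 4.1% of all genes. There were 7 of 51 for tumour against T-3Mb-Erg HG-PIN, beside 7.65%, and 5 of 51 for tumour against control HG-PIN, beside 9.32%. Of 11 secretase genes and substrates, the partners of Bace2, the median change was -0.14 in T-3Mb-Erg HG-PIN against control HG-PIN and 0.03 in tumour against T-3Mb-Erg HG-PIN. Aplp2, a relative of the amyloid precursor protein gene, averaged 5.68 ± 1.24 in the tumours and 7.30 ± 0.30 in T-3Mb-Erg HG-PIN (SD, n = 3 each), with an adjusted p of 0.555 in limma's fit. Of 16 proteasome assembly and core genes, the partners of Psmg1, 14 had a positive and 2 a negative change in T-3Mb-Erg HG-PIN against control HG-PIN, where 50.5% of all genes were negative, with a median of 0.27. Without control HG-PIN replicate 2 these became 8 positive and 8 negative, with a median of 0.0039. The mean score of the list was 0.43, 0.02 and -0.11 in T-3Mb-Erg HG-PIN, against 0.32, -0.65 and -0.01 in control HG-PIN, so that array stood apart. Psmg3, another assembly chaperone, averaged 4.54 ± 0.22 in the tumours and 5.20 ± 0.16 in T-3Mb-Erg HG-PIN (SD, n = 3 each), a change of -0.66 (adjusted p = 0.454 in limma's fit).

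Relatives of the chromatin genes were few on the arrays. Hmgn3 changed by 0.26 in T-3Mb-Erg HG-PIN against control HG-PIN and by 0.30 in tumour against T-3Mb-Erg HG-PIN. Phip, the relative of Brwd1, changed by 0.43 and -0.15 in the same comparisons, and Lca5, the lebercilin gene, by -0.08 and 0.26. Of the FAM3 family, Fam3a changed by -0.25 in T-3Mb-Erg HG-PIN against control HG-PIN and Fam3c by -0.70 in tumour against T-3Mb-Erg HG-PIN. The 3 tested calmodulin-binding relatives of Pcp4 had medians of 0.03 and 0.07 in the same comparisons. For the 6 junctional relatives of Igsf5 the medians were 0.11 and -0.21. In tumour against T-3Mb-Erg HG-PIN these relatives ranged from -1.17 for F11r to 0.88 for Clmp, and neither was called. For the 5 β2 integrin genes the medians were 0.16 and -0.01. Itgb2, the β subunit these leukocyte integrins share, changed by 0.73 in tumour against T-3Mb-Erg HG-PIN (adjusted p = 0.427 in limma's fit).

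Other B3galt genes were read as relatives of B3galt5, together with B3galnt1 and B3galnt2, whose enzymes add N-acetylgalactosamine rather than galactose. For 5 tested genes the median was -0.53 in T-3Mb-Erg HG-PIN against control HG-PIN, where B3galt2 changed by -0.99 (adjusted p = 0.998 in limma's fit). In tumour against T-3Mb-Erg HG-PIN all 5 changes were positive, with a median of 0.48, and in tumour against control HG-PIN the median was -0.16. B3galnt1, which makes the globoside of cell membranes, averaged 4.88 ± 0.04 in the tumours, 3.97 ± 0.25 in T-3Mb-Erg HG-PIN, against 3.78 ± 0.12 in control HG-PIN (SD, n = 3 each). Its tumour values did not overlap either HG-PIN group. The changes were 0.91 against T-3Mb-Erg HG-PIN (adjusted p = 0.100) and 1.09 against control HG-PIN (adjusted p = 0.055), in limma's fit. Against control HG-PIN it passed in several other settings, with an adjusted p of 0.0371 after quantile normalization.

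The genes whose levels ran most nearly in parallel over the 9 arrays were looked up for the 2 members above the gauge. For Bace2 they were Capn5, Cmtm4 and Baiap2 (r = 0.97 each), and for Pcp4 they were Faim (r = 0.94), Hace1 (r = 0.93) and Zdhhc3 (r = 0.92). The arrays share groups and, for 3 mice, animals, so these values describe likeness only.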

How the data were processed

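The deposited table held linear intensities of 41345 probe sets on 9 arrays, normalized by the authors in a way not given in the sources used here. Per the labels' protocols, RNA was extracted with the RNeasy FFPE kit and amplified with NuGEN Ovation V2. Symbols came from the platform annotation: 23521 probe sets had 1 symbol, 1814 several and 16010 none, and only the first kind was used. The brightest probe set stood for a symbol. Values were put on a log2 scale, the lowest 25% of genes (mean under 3.25) were removed, and 16635 genes were fitted with limma 3.58.1 (R 4.3.3): a mean for each of 3 groups over 9 arrays, the mouse as a random block, a mean trend, and Benjamini-Hochberg adjustment over all genes tested. Calls were made at an adjusted p under 0.05. The number of arrays limits the precision.

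Tumour and HG-PIN arrays of T-3Mb-Erg mice were paired by the mouse named in the labels. Deviations from the group means correlated at 0.17, 0.10 and -0.30 within the 3 mice, and the consensus correlation was -0.01. The mice are separate animals within each group, 6 in all. No scan dates or batches were given in the sources used here. Alternatives covered normalization, filter, pseudocount, block, array weights, array range, probe set rule and leaving out arrays. All members, both end genes and the genes most like Bace2 and Pcp4 are named by rule. For the lists, the rule was the called genes or else the gene with the smallest p, and not every such gene is named above. In tumour against T-3Mb-Erg HG-PIN, the basal marker Krt15 (-3.00, adjusted p = 0.0158) and the macrophage marker Cd14 (-1.73, adjusted p = 0.0409) were also called lower in limma's fit. The members and lists were chosen with earlier results of these data known.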

Additional observations from a re-analysis of the deposited data

How the results depend on the processing

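In T-3Mb-Erg HG-PIN against control HG-PIN, 0 members were called in any of 21 settings, and the median of the members lay between -0.0072 and 0.24 when single arrays were left out. In tumour against T-3Mb-Erg HG-PIN the number called was 0, and with array quality weights it was 1 (Bace2). The median there was -0.30 with the narrowest array of each group left out, and -0.26 to -0.081 when single arrays were left out. In tumour against control HG-PIN the number called was 2 (Bace2 and Fam3b) with array quality weights, 1 (Fam3b) with the narrowest arrays left out, and 0 to 1 when single arrays were left out, the 1 being Bace2 without control HG-PIN replicate 2. The median there was -0.14 to 0.06 when single arrays were left out. With a term for each mouse as a replicate block, possible only for tumour against T-3Mb-Erg HG-PIN, 0 members were called, the median of the members was -0.14, and no member's call changed. The sign of the change was the same in every setting for 3 of 10 members in T-3Mb-Erg HG-PIN against control HG-PIN, 3 in tumour against T-3Mb-Erg HG-PIN (Bace2, Fam3b and Lca5l) and 6 in tumour against control HG-PIN.

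Counts over all genes moved more. In T-3Mb-Erg HG-PIN against control HG-PIN they were 0, with 4 (these 2 groups only), 9 (weights), 7 (array range as a term), 4 (narrowest arrays left out) and 0 to 6 (single arrays left out). In tumour against T-3Mb-Erg HG-PIN they were 47, with 84 (quantile), 73 (75th percentile scaling), 18 (pseudocount of 16), 26 (fixed block), 405 (weights), 194 (range), 182 (narrowest) and 0 to 110 (single arrays). In tumour against control HG-PIN they were 30, with 88 (quantile), 58 (75th percentile), 7 (pseudocount), 7 (2 groups only), 938 (weights), 196 (range), 260 (narrowest) and 0 to 261 (single arrays). The cause was not tested. B3galt5, Itgb2l and Fam3b were not tested when the lowest 50% of genes was removed, and with the narrowest arrays left out too few mice were shared for a block. Signal limits most members: 8 of 10 averaged below the gauge.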
